A study of Mus musculus with 2 samples.

Results

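The genes described here are 10 genes of cholesterol efflux and lipoprotein handling: Apoe, Apoc2, Abca1, Abcg1, Nr1h3, Nr1h2, Pltp, Lpl, Mylip and Soat1. They were chosen by name from a table of 38293 genes, and all 10 were found and passed the minimum of a mean of 20 normalised reads over both libraries, which 11795 genes reached. Messenger RNA came from lung macrophages of C57BL/6 mice aged 8 weeks that carried the roundworm Nippostrongylus brasiliensis, given as 625 larvae under the skin 7 days earlier. One group was wild type (WT) and the other lacked the receptor kinases Axl and Mertk (Axl-/-Mertk-/-). Both were infected, so no uninfected state enters any comparison. The sort kept CD45-positive cells with Siglec-F, little CD11b and much CD11c on their surface, as alveolar macrophages have. Each group has 1 library. The sources used here do not give how many mice a library holds, which exons were deleted or the strain in which the alleles were made.

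Macrophages that take in cell debris and lipid cannot break down the sterol ring, so they store cholesterol as esters or export it. Oxysterols made from surplus cholesterol activate the liver X receptors LXRα (Nr1h3) and LXRβ (Nr1h2), which pair with a retinoid X receptor and switch on transporters, apolipoproteins and lipoprotein-modifying proteins. Alveolar macrophages work in a setting rich in surfactant lipid, and mice lacking the exporter ABCG1 accumulate lipid in these cells. Mertk is itself a known LXR target gene in mouse macrophages, which places one of the deleted receptors beside this pathway.

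The LXR site of textbooks is a direct repeat of the half-site AGGTCA with 4 bases between the copies (DR4, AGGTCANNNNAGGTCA). Promoters from 250 bases before to 50 bases after the start were taken from RefSeq (GRCm38.p6), which gave 11 promoters for 8 of the 10 genes; Abcg1 and Lpl had no entry. The 3 printed here are those of Abca1, the textbook LXR-driven exporter, and of Apoe and Apoc2, the members with the highest ratios between the libraries. Capitals mark matches to the half-site or its repeats on either strand.
Abca1 (chr4:53159846-53160145, minus strand): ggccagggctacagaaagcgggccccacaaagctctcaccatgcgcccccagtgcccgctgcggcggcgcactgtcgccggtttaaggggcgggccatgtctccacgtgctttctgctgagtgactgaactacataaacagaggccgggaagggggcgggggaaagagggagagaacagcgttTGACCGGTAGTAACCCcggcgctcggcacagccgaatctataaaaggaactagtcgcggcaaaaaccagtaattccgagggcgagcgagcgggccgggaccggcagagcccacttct
Apoe (chr7:19699139-19699438, minus strand): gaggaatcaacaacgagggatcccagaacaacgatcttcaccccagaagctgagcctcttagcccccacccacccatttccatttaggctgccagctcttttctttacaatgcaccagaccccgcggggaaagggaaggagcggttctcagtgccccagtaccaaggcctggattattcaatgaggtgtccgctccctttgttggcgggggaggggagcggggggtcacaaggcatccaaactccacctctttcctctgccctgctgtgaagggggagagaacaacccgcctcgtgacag
Apoc2 (chr7:19677892-19678191, minus strand): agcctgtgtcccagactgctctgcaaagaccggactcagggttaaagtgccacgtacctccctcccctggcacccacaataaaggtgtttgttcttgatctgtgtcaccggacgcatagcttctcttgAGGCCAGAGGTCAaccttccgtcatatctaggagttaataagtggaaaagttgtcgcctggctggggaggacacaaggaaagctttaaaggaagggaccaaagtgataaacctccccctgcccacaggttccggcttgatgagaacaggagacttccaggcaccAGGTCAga
With at most 1 mismatch in each half-site, DR4 was found in 0 of the 11 promoters and in 1.75% of all 32851 promoters of the same length. With at most 2 mismatches in a half-site and 3 over both, the Abca1 promoter held 1 match on the opposite strand, 67 to 52 bases before the start, but 18.8% of all promoters then held one. A match of letters, or its absence, does not show whether LXR acts at a promoter. The Apoc2 promoter held AGGTCA at 115 to 110 bases before the start and again at bases 43 to 48 after it, where 16.3% of all promoters hold AGGTCA on either strand. The first copy ends a repeat with 1 base between the half-sites (DR1, AGGTCANAGGTCA, at most 1 mismatch in each half-site), which 2.40% of promoters hold. The Apoe promoter shown had no match, and the enhancers through which LXR is known to act on Apoe lie outside this window.

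Gene totals summed to 15282882 reads for WT and 15519680 for Axl-/-Mertk-/-. A single library per genotype gives neither a replicate check nor a spread between animals, and no p-value was computed. Values are the deposited normalised reads, and each ratio is Axl-/-Mertk-/- over WT with an exact 95% interval that covers counting error only. Axl was at 15.5% and Mertk at 43.8% of the WT value in the library labelled Axl-/-Mertk-/-, so both targeted genes were lower where the label says they are deleted, with reads from any parts left in place still counted. In bulk RNA, a different number of cells of a type and a different amount of RNA per cell cannot be told apart.

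Of the 10 genes, 7 had a ratio above 1 and 3 below it, where 48.8% of all measured genes lay above 1, with Lpl passing to above 1 when library totals or median-of-ratios factors set the scaling. Their median log2 ratio was 0.11, beside a median of -0.0047 over all measured genes, and without Apoe, Apoc2 and Nr1h2, which lie within 20 Mb of Axl, it was 0.0042. Only Apoc2 was at least 1.5-fold higher and none was 1.5-fold lower, on the log2 scale with 10 added to each value. The share of all measured genes past 1.5-fold was 1.74% on the higher and 1.33% on the lower side. At 1.2-fold, Apoe joined Apoc2 on the higher side and none was on the lower, where 8.37% and 8.50% of measured genes lay. The counting interval was above 1 for Apoe, Apoc2, Nr1h3, Pltp and Mylip, below 1 for Abcg1 and included 1 for Abca1, Nr1h2, Lpl and Soat1. Over all measured genes it was above 1 for 10.1% and below 1 for 11.4%. The interval narrows as reads increase, and these shares take in genes down to a mean of 20. They are therefore not matched to the level of the 10 genes. The count of intervals contrasts 2 libraries, and says nothing of the spread within a genotype. The pooled reads of the 10 genes had a ratio of 1.098 (1.089 to 1.108), and without Apoe one of 0.996 (0.986 to 1.007). Leaving out Apoe thus brought the total to within counting error of equal levels. Lpl and Abcg1 weigh most in that total, with 36044 and 15767 of its 67744 WT reads. Of its 9 genes, 4 had an interval above 1 and 1 had an interval below 1.

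**Figure D1:**
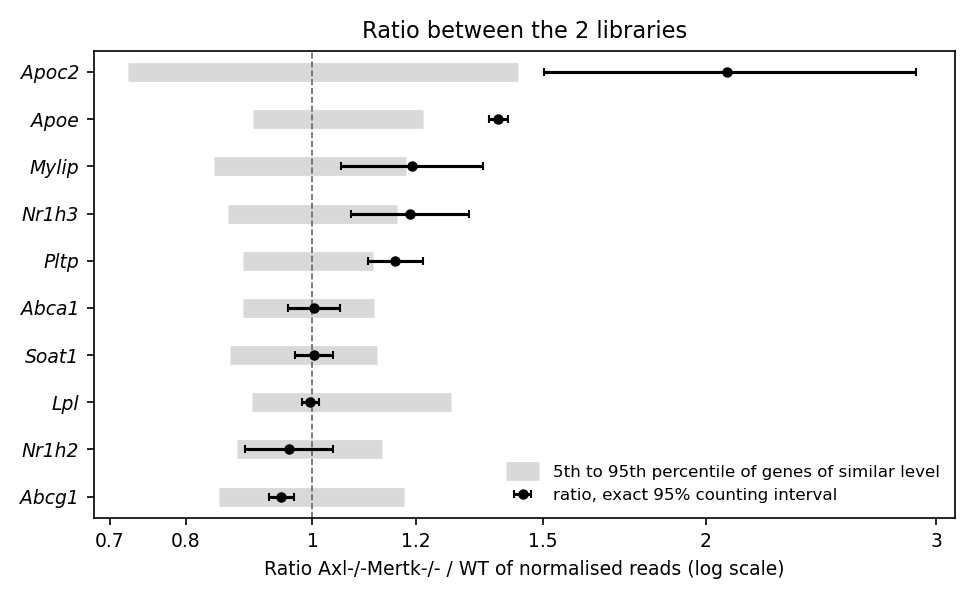
Ratio of normalised reads in Axl-/-Mertk-/- over WT for each gene (x axis, log scale), as a point with its exact 95% counting interval, 1 library per genotype. Grey bars span the 5th to 95th percentile of ratios over genes whose mean lies within 2-fold of that gene's mean; Apoc2, Apoe, Mylip, Nr1h3 and Pltp lie to the right of their bar and the other 5 inside it.

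Levels between genes were compared per length, as RPKM, the reads of a gene scaled by its exon length and by the library total. Apoe was the most abundant of the 10 at 733 RPKM in WT and 1023 in Axl-/-Mertk-/-, which was place 40 and place 33 among all measured genes. Lpl followed at 225 and 226 RPKM, then Abcg1 at 141 and 135. Pltp was at 77.7 and 90.5 RPKM and Soat1 at 45.5 and 46.0. The receptors and Abca1 lay close together: Nr1h2 at 25.6 and 24.7, Abca1 at 22.6 and 22.9 and Nr1h3 at 17.3 and 20.7 RPKM. Mylip stood at 9.27 and 11.1 RPKM and Apoc2 last at 4.59 and 9.59. The order was the same in both libraries. With the longest transcript as the length Lpl moved to 573 RPKM in WT, since most of the exon length of Lpl lies outside that transcript, and the WT order was unchanged, whereas Nr1h3 (26.2) passed Abca1 (23.1) in Axl-/-Mertk-/-.

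**Figure D2:**
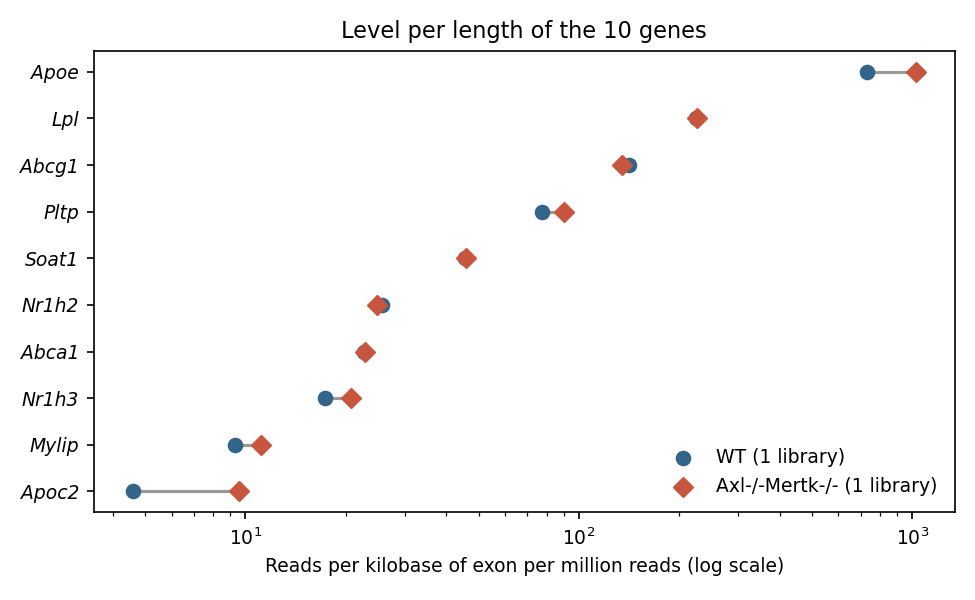
Level of each gene in RPKM (x axis, log scale), with a circle for the WT library and a diamond for the Axl-/-Mertk-/- library. The genes span 4.59 to 733 in WT, and the widest gaps between the symbols are those of Apoc2 and Apoe.

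The apolipoproteins stood furthest from equal levels. Apoe encodes apolipoprotein E, which macrophages secrete as an acceptor of exported cholesterol and a ligand of lipoprotein receptors. WT held 28900.3 normalised reads of Apoe, and 23947 reads lie behind that value. Axl-/-Mertk-/- held 40081 from 33955 reads, so that the ratio was 1.39 (1.36 to 1.41). As a share of all reads Apoe made up 0.157% of the WT library, with an exact binomial interval of 0.155% to 0.159%. The share was 0.219% in the other library, with bounds of 0.216% and 0.221%. Of the 79 genes whose mean lay within 2-fold of its own, 0 had a ratio as high. Of 204 genes whose mean reached 10000, a bound set after the value had been seen, only the mitochondrial ribosomal RNA gene mt-Rnr1 had a higher ratio (1.53). Next below Apoe came the MHC class II genes H2-Ab1 (1.34) and H2-Aa (1.31).

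Apoc2 encodes apolipoprotein C-II, the cofactor without which lipoprotein lipase does not act on triglyceride. The level was 68.8 normalised reads in WT, from 57 reads, against 143 from 121 reads, which makes the ratio 2.08 (1.5 to 2.90). This is the lowest level of the 10 genes, and its interval is the widest. Of 2511 genes of similar mean, 21 had a ratio as high. The annotation used here also holds Gm44805, a read-through gene of Apoc4 and Apoc2 on the same strand, which shares 647 bases with Apoc2 at 100% identity. The deposited values include none for Gm44805. Any reads it gave over the shared stretch cannot be told apart from those of Apoc2, which is uncertain to that extent. Apoe and Apoc2 lie in 1 cluster on GRCm38 chromosome 7 (19671579 to 19699188, minus strand). Between them, Apoc1, which encodes another small apolipoprotein, was read 20 times in WT against 26 times, with an interval of 0.683 to 2.40, and Apoc4 had 0 and 1 read.

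The 2 exporters had ratios close to 1. Abca1 (chromosome 4, 53030787 to 53159895) encodes the transporter that loads cholesterol and phospholipid onto lipid-poor apolipoprotein. Its normalised reads numbered 4325 in WT against 4338, for a ratio of 1.003 (0.958 to 1.05). Abcg1 (chromosome 17, 31057675 to 31117988) encodes the transporter that passes cholesterol on to mature high-density lipoprotein. WT held 19028 normalised reads of Abcg1 against 18008.5 in Axl-/-Mertk-/-, and the ratio was 0.946 (0.926 to 0.968). Its counting interval lay below 1, but 56 of 188 genes of similar mean had a ratio as low. Per length, Abcg1 was 6.25 times as abundant as Abca1 in WT and 5.89 times in Axl-/-Mertk-/-. Per length, the ratio of Apoe to Abca1 was 32.4 in WT and 44.8 in Axl-/-Mertk-/-, and that of Apoe to Abcg1 was 5.18 and 7.60.

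Of the sterol-sensing receptors, Nr1h3 was higher and Nr1h2 was not distinguishable from WT by counting. Nr1h3 (chromosome 2, 91184061 to 91202834) encodes LXRα and is itself an LXR target in human macrophages. Levels were 804 normalised reads in WT against 954, for a ratio of 1.19 (1.07 to 1.32). Of 3904 genes of similar mean, 134 had a ratio as high. Nr1h2 (chromosome 7, 44549616 to 44553951), which encodes the broadly expressed LXRβ, stood at 1585 normalised reads in WT against 1520.4, for a ratio of 0.959 (0.888 to 1.04). Per length, Nr1h3 stood at 0.676 of the Nr1h2 level in WT and at 0.837 in Axl-/-Mertk-/-, so Nr1h2 was the more abundant in both libraries. Nr1h3 shares positions with Gm13783 on the same strand, whose count was 1 read (WT) and 0 (Axl-/-Mertk-/-).

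The proteins that act on circulating lipoproteins differed from each other. Pltp (chromosome 2, 164839518 to 164857711) encodes phospholipid transfer protein, which moves phospholipid between lipoproteins and is a known LXR target. WT held 3670.0 normalised reads of Pltp against 4246 in Axl-/-Mertk-/-. The ratio was 1.16 (1.10 to 1.21), and 36 of 1510 genes of similar mean had a ratio as high. Its 3′ end overlaps Ctsa on the other strand over 1515 bases, and Ctsa was at 19629 and 19030 normalised reads with a ratio of 0.969. The counting strand is not given, so reads of the shared stretch cannot be assigned and Pltp is uncertain. Lpl (chromosome 8, 68880491 to 68907448) encodes lipoprotein lipase, which frees fatty acids from triglyceride-rich lipoproteins. Lpl held more reads than any other member in both libraries, with 43499.5 normalised reads in WT against 43334.5, for a ratio of 0.996 (0.982 to 1.01). The enzyme and its cofactor thus had different ratios: per length Lpl was 49.1 times as abundant as Apoc2 in WT and 23.5 times in Axl-/-Mertk-/-.

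The remaining pair govern uptake and storage. Mylip (chromosome 13, 45389742 to 45412022) encodes the ubiquitin ligase IDOL, an LXR target that limits lipoprotein uptake. Its level was 553 normalised reads in WT against 659, resting on 458 against 558 reads, for a ratio of 1.19 (1.05 to 1.35). Of 4107 genes of similar mean, 170 had a ratio as high. Soat1 (chromosome 1, 156424525 to 156474331) encodes the enzyme that esterifies cholesterol for storage in droplets. WT held 8223 normalised reads of Soat1 against 8245, for a ratio of 1.003 (0.970 to 1.04). Genes known as LXR targets, Nr1h3 from human macrophages, thus included members with intervals above 1 (Apoe, Apoc2, Nr1h3, Pltp, Mylip), below 1 (Abcg1) and including 1 (Abca1, Lpl).

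Several of these genes share a chromosome with a deleted receptor gene. Apoe and Apoc2 lie 6.06 and 6.08 Mb from Axl on chromosome 7, and Nr1h2 lies 18.8 Mb from it on the other side. Nr1h3 lies 37.5 Mb and Pltp 36.0 Mb from Mertk on chromosome 2. Within 20 Mb of Axl, 8 of 326 measured genes other than Axl were at least 1.5-fold apart (2.45%), with Apoc2 among them, beside 3.07% of all measured genes. In that window 14 genes other than Apoe had a ratio of at least that of Apoe and 2 other than Apoc2 a ratio of at least that of Apoc2. These ranks are not matched for level. The most abundant of the 14 was Pou2f2, with a mean of 164 normalised reads against 34491 for Apoe, and counting error is larger at such low levels. Around Mertk 25 of 226 measured genes within 20 Mb were 1.5-fold apart (11.1%), whereas at 20 to 40 Mb, where Nr1h3 and Pltp lie, 9 of 250 were (3.60%). On chromosomes other than 2 and 7 the share was 2.87%.

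The measured protein-coding genes next to the Apoe cluster had ratios near 1. On the Apoe side these were Tomm40, a mitochondrial import pore gene 2.13 kb away (740 and 737 normalised reads, ratio 0.996), Pvrl2 (0.961) and Bcam (1.08). On the Apoc2 side they were Clptm1 (2695 and 2562, ratio 0.951), Relb (1.10) and Clasrp (0.942). The counting intervals of these 6 genes all included 1. Every cell lacking Axl also carries the DNA linked to the targeted allele, so that the genotype and linked differences cannot be told apart for Apoe and Apoc2 in these 2 libraries.

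**Figure D3:**
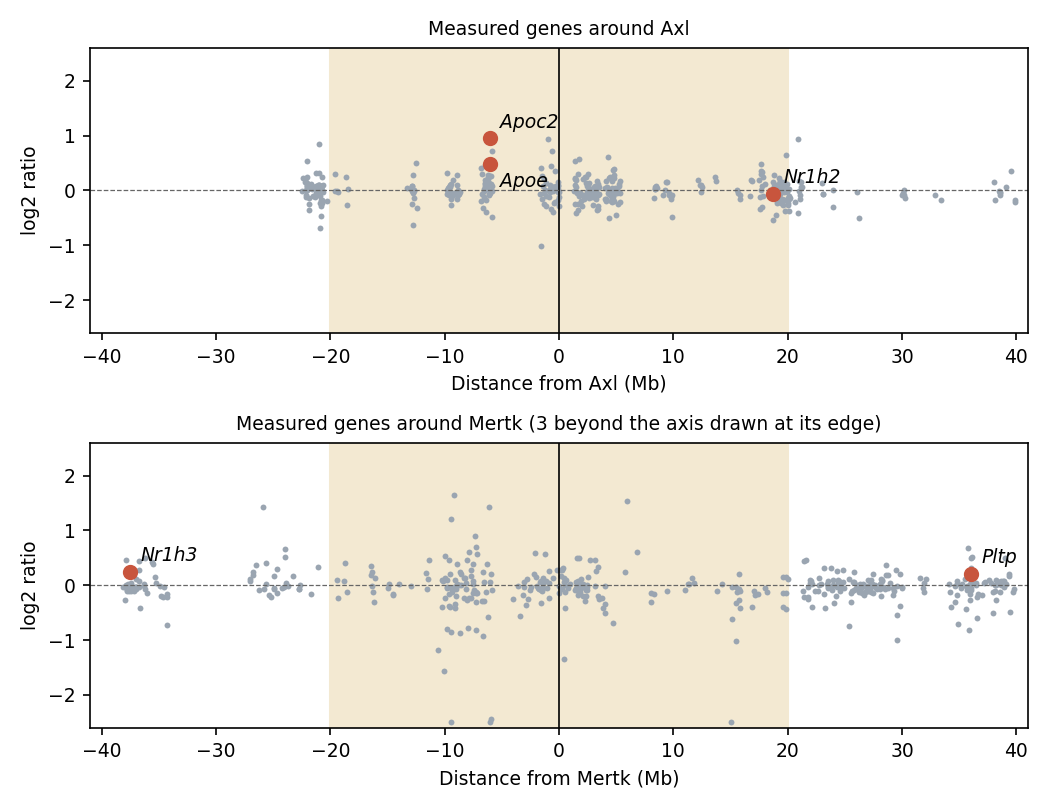
log2 ratio, with 10 added to each value, of measured genes (y axis) against their distance in Mb from Axl (top) and Mertk (bottom), with the shaded band marking 20 Mb to each side and the deleted genes left out. Members are the large points: Apoe and Apoc2 sit above most genes around them, and 3 genes near Mertk lie beyond the lower axis and are drawn at its edge.

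Other genes of the pathway came from 9 lists chosen by function, with 115 of 116 genes found and 87 measured. Past 1.5-fold lay 4 of these 87 on the higher and 1 on the lower side, beside 1.74% and 1.33% of all measured genes. The median log2 ratio of the 87 was 0.017. Among the higher genes were Clu (62.8 and 132 normalised reads), which encodes clusterin, also called apolipoprotein J, Sorl1 (475 and 726), a sorting receptor gene, and Abca6 (24.1 and 42.5). The lower gene was Cd5l, at 57.9 and 28.3 normalised reads with a ratio of 0.489 (0.287 to 0.814), which encodes a macrophage survival factor and is a known LXR target. Apart from Sorl1 the counts of these named genes were small, and for Abca6 the interval included 1 (0.992 to 3.21).

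Of 12 further apolipoprotein and lipoprotein assembly genes only Clu and Apoc1 were measured (median log2 ratio 0.61), and Apoa4 and Apoc3 had 0 reads in both libraries, so that up to 3.62 (WT) or 3.54 (Axl-/-Mertk-/-) normalised reads would go unseen. Among the other LXR targets 7 of 11 measured genes had a ratio above 1 and 4 below, beside the 48.8% of all measured genes above 1; 0 were 1.5-fold higher, Cd5l alone was 1.5-fold lower and the median log2 ratio was 0.088. The most abundant was Tgm2, which encodes transglutaminase 2, at 24564 and 22853 normalised reads with a ratio of 0.930 (0.912 to 0.949). Smpdl3a, a phosphodiesterase gene, had a ratio of 1.13 (1.08 to 1.18) and Scd2, a fatty acid desaturase gene, one of 1.06 (1.01 to 1.12). RXR partners, PPARs and coregulators lay within 1.5-fold for 16 of 16 measured genes, with a median log2 ratio of 0.012. Rxra, which encodes the retinoid X receptor that pairs with LXR, was at 4684 and 4429 (0.946, 0.904 to 0.989). The corepressor gene Ncor1 had a ratio of 1.01.

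Genes of cholesterol ester hydrolysis and intracellular transport lay within 1.5-fold for 19 of 19, with a median log2 ratio of -0.022. Lipa, the lysosomal lipase that frees cholesterol from ingested esters, was at 20742 and 18053 normalised reads (0.870, 0.852 to 0.890). The lysosomal cholesterol carrier Npc2 was at 14598 and 14594, and the ester hydrolase gene Nceh1 at 7550.0 and 7438. Of 11 measured uptake receptors Sorl1 alone was 1.5-fold apart, and the median log2 ratio was 0.012. The interval was above 1 for 3 of the 11 (Sorl1, Lrpap1 and Scarb1) and below 1 for 3, which were also the 3 most abundant: Lrp1, a receptor for Apoe-bearing particles, at 32831 and 29609 (0.902, 0.886 to 0.917), Cd36 at 17002 and 14662 (0.862, 0.842 to 0.883) and Olr1 at 8885 and 8039 (0.905, 0.875 to 0.935). The ligand Apoe and its receptor Lrp1 thus had ratios on opposite sides of 1.

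Partners of lipoprotein lipase were measured for 4 of 9 genes found; their median log2 ratio was -0.064, and 1 of them was past 1.5-fold. Sel1l, which helps the lipase leave the endoplasmic reticulum, was at 5780 and 5306 normalised reads (0.918, 0.881 to 0.956), the inhibitor gene Angptl4 at 1985 and 1758 (0.885, 0.825 to 0.950) and Lmf1, its maturation factor, at 501 and 499. Oxysterol enzymes lay within 1.5-fold for 6 of 6, with a median log2 ratio of -0.024. Hsd3b7 was at 3388 and 3200.1 normalised reads and Ch25h, which makes 25-hydroxycholesterol, at 2365 and 1909 (0.807, 0.755 to 0.862). The other ABCA and ABCG transporters were measured for 8 of 16 genes, with a median log2 ratio of 0.10, and Abca2 (0.984), Abca7 (1.07) and Abca3 (1.13) were the most abundant. Genes of SREBP2 and sterol synthesis lay within 1.5-fold for 12 of 12, with a median of 0.026; Insig1 (1.05) and Srebf2 (1.03) were among the most abundant.

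**Figure D4:**
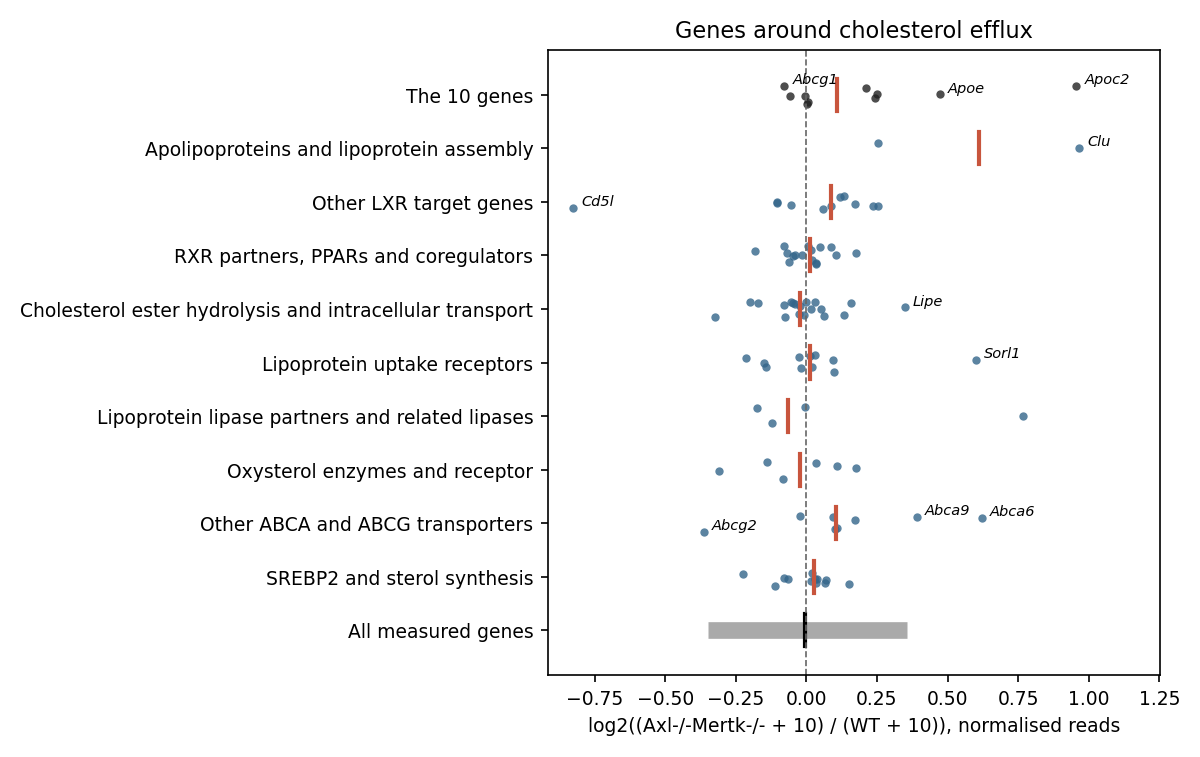
log2 ratio of Axl-/-Mertk-/- over WT with 10 added to each value (x axis) for the 10 genes (black) and for each measured gene of 9 pathway lists (blue), with red bars at medians. The grey bar spans the 5th to 95th percentile of all measured genes; Apoc2, Apoe, Clu, Abca6, Sorl1 and Abca9 are among the points above it, and Cd5l and Abcg2 lie below.

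The identity of the sorted cells was checked in the same libraries, since Apoe is also abundant in monocyte-derived and interstitial macrophages. The defining alveolar markers were present in both: Itgax (CD11c) at 40087 and 39176 normalised reads, Siglecf at 2566 and 2347, Marco at 10090.4 and 8630.1 and Ear2 at 21670.1 and 22092. Of 16 alveolar macrophage markers 14 had a ratio below 1 (median log2 ratio -0.20), and their summed level was 1318998.5 and 1142278.4, most of it Chil3. Of 15 markers of monocyte-derived and interstitial macrophages 10 had a ratio above 1 and 5 below (median 0.13), with a summed level of 65991.5 and 73612.4 and a ratio of 1.12 (1.10 to 1.13). Past 1.5-fold on the higher side were Ly6c2 (62.8 against 140.5), Cx3cr1 (229 against 394) and Plac8 (144 against 296), and on the lower side Folr2 (226 against 111), while C1qa had a ratio of 1.10. Also below 1 were Lyve1 (0.761), Gas6 (0.790), Tmem119 (0.785) and Itgam (0.988), all but Gas6 with an interval that included 1. Apoe and Apoc2 were thus higher alongside several markers of this list but not all, and the part of those cells in the result was not tested.

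Markers of other cells also differed between the libraries. Red cell markers were at least 1.5-fold higher for 5 of 5 measured, with a summed level of 249 and 754 normalised reads, of which Hbb-bs made up 105.0 and 400.2. Endothelial markers were 1.5-fold higher for 5 of 7, Cdh5 among them (80.9 and 155), but the summed level was 4074 and 4142 because Vwf (3339 and 3053) dominates it. Gpihbp1, the capillary anchor of lipoprotein lipase, was read 4 times in WT against 14 times in Axl-/-Mertk-/-. Summed levels of neutrophil markers were 944 and 1103 and of T and NK cell markers 2122 and 2388. Il7r (1889 and 2082) made up most of the T and NK cell sum, while Cd3e was at 33.8 and 35.4. The summed level of lung epithelial markers was 3622 and 3134, although 5 of 8 measured had a ratio above 1 (median log2 ratio 0.077), and Scgb1a1 carried most of the sum. For dendritic cells the sums were 5799 and 5570.4, with a ratio whose interval included 1, and 6 of 8 markers had a ratio above 1 (median 0.13). Mgl2 (4114 and 3664) carried most of the dendritic cell sum. The interval of the summed ratio also included 1 for fibroblasts and smooth muscle (561 and 511), B cells (490 and 453) and eosinophils (82.1 and 76.7). The neutrophil marker Ly6g had 0 reads and 1 read and the eosinophil marker Epx 1 read and 0. The part of these cells in the ratios of Apoe and Apoc2 was not tested.

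**Figure D5:**
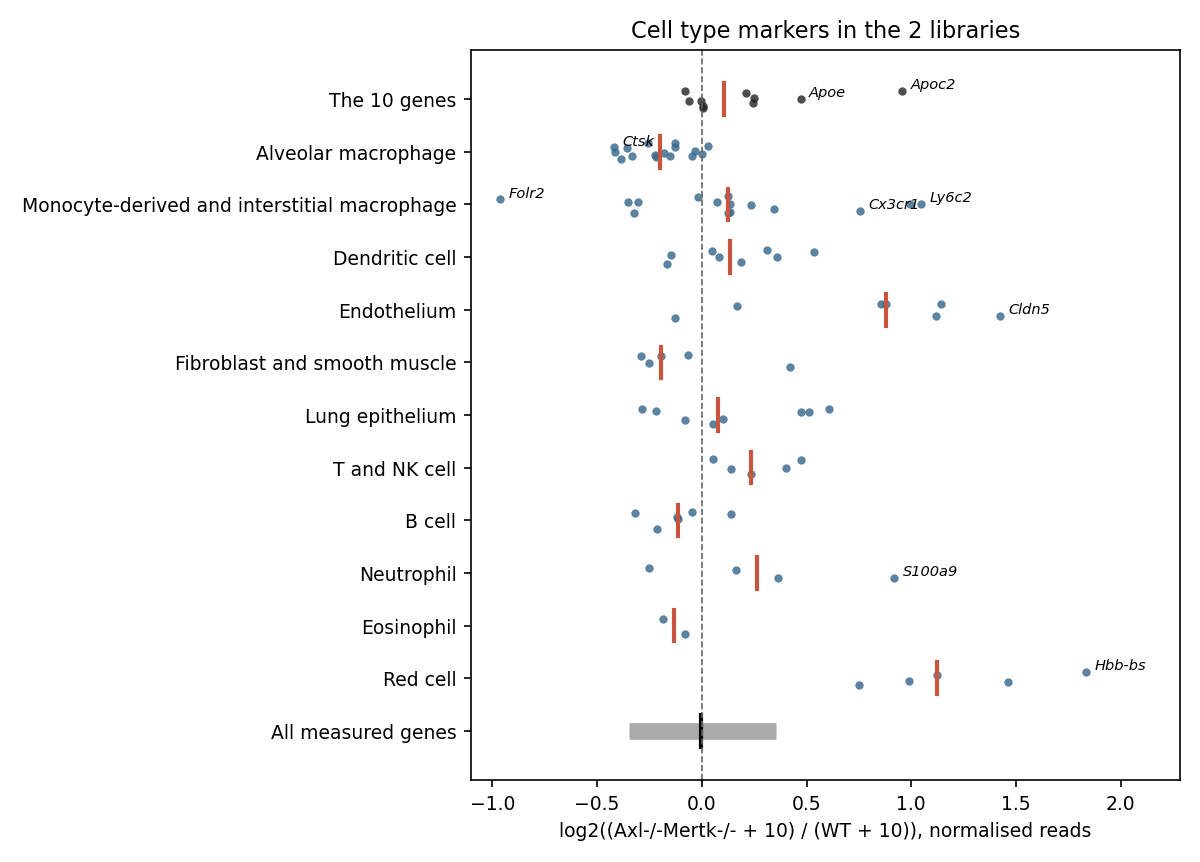
log2 ratio of Axl-/-Mertk-/- over WT with 10 added to each value (x axis) for the 10 genes (black) and for measured markers of 11 cell types (blue), with red bars at medians and a grey bar for the 5th to 95th percentile of all measured genes. Alveolar macrophage markers lie mostly left of 0 (median -0.20), monocyte-derived and interstitial markers mostly right of it (median 0.13).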

How the data were processed

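The submitters' processing notes name TopHat2, DESeq2 and build GRCm38, without their roles. The deposited table is a signal: by its values, each gene's reads over a size factor for the library. The sources used here name no counting program, strand setting or version. Per the labels' protocols, RNA was selected with oligo-dT beads and libraries kept strand. The table has 0 columns of other samples. All non-zero values were whole multiples of the lowest in their library (tolerance 1e-06), so whole reads were recovered for 100% of values. No count model could be fitted to 1 library per group. In its place the ratio has an exact 95% interval (Clopper-Pearson, on recovered reads), which excluded 1 for 2540 genes. Intervals and detection limits cover counting error only, since PCR copies were not told apart by any molecular identifier named in the sources. The log2 ratio has a pseudocount of 10, which understates low genes, and measured means a mean of at least 20. The members, lists and rules were chosen with earlier results of these data known, and the DR1 and single half-site searches, Gpihbp1 and the loose DR4 rule after values had been seen. All 10 genes are described. Of each pathway list the 3 most abundant genes and those at least 1.5-fold apart were named, of markers the defining and the most abundant, and around Apoe the nearest 3 measured genes to each side. Some genes that these rules name are not reported here. Positions and lengths are from GENCODE vM21 (95.1% of identifiers found), and near copies were searched with BLAST+ 2.17.0 (at least 90% identity over 100 bases). Other tools were Python 3.11.15, numpy 2.4.6, pandas 2.3.3, SciPy 1.17.1, matplotlib 3.10.9 and edgeR 4.0.16 for scaling factors. Ratios and intervals were tested on simulated data.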

Additional observations from a re-analysis of the deposited data

How the results depend on the processing

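No paired analysis was possible because each genotype has 1 library, and for the same reason no replicate could be left out. The log2 ratios of the 10 genes kept their direction under every scaling tried except that of Lpl, which ran from -0.0073 to 0.010, and no scaling moved all genes by more than 0.016. Apoe ran from 0.47 to 0.49 over the scalings and pseudocounts tried and Apoc2 from 0.70 with a pseudocount of 50 to 1.04 with 1. Without genes within 20 Mb of Axl or Mertk, which removes Apoe, Apoc2 and Nr1h2, 0 members were 1.5-fold higher and their median log2 ratio was 0.0042. Members higher numbered 2 at 1.2-fold, 0 at 2-fold and, by the counting interval, 5 with 1 lower. Of the pathway genes, 1 was higher and 0 lower with a pseudocount of 50, and also 1 and 0 with a mean of at least 100. The lower ones numbered 4 at 1.2-fold, 0 were higher and 0 lower at 2-fold, and by the counting interval 13 were higher and 15 lower. Over all measured genes, lower ones numbered 247 with a pseudocount of 1. Higher and lower ones numbered 58 and 58 with a pseudocount of 50, 458 and 366 with no minimum mean, and 50 and 65 with a mean of at least 100. They numbered 987 and 1002 at 1.2-fold, 41 and 32 at 2-fold, and 1196 and 1344 by the counting interval. Within 20 Mb of Axl the genes apart were 15 with a pseudocount of 1, 1 with 50, 26 with no minimum mean, 3 with a mean of at least 100, 59 at 1.2-fold, 1 at 2-fold and 62 by the counting interval. DR4 was found in 1 of the 8 genes with the looser rule, added after the data had been seen. By construction each rule admits more or fewer genes. At this depth Apoc2 rests on 57 and 121 reads, and its interval covers counting error only.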
